A study of Mus musculus with 8 samples.

Results

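The 10 genes described here encode proteins that repress or destroy messenger RNA: the Argonautes Ago1 and Ago2, the GW182 proteins Tnrc6a and Tnrc6b, the deadenylase subunits Pan2 and Pan3, the helicase Mov10, and the zinc finger proteins Zfp36, Zfp36l1 and Zfp36l2. They were chosen by name out of 22553 genes, and all 10 were found in the table. Ribosome profiling, which sequences the pieces of mRNA that ribosomes protect (footprints), was set beside input RNA in 2 cell populations sorted by GFP from the main olfactory epithelium of mice. Ngn1-GFP marks immediate neuronal progenitors together with immature sensory neurons, while OMP-GFP marks the mature ones. Control mice carried Mex3a flox/flox or flox/+ alleles without a Cre driver, and KO mice carried Mex3a flox/flox with a Cre driver. A floxed Mex3a allele was thus common to control and KO mice. So was a GFP reporter (Ngn1-GFP or OMP-ires-GFP, by population), except that the labels of the OMP-GFP KO conflict on it. The genotype tag of that group reads OMP-ires-Cre while its description reads OMP-ires-GFP. No source used here gives ages or the number of animals.

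The labels list 8 footprint libraries, 2 per group, but the table has 1 footprint column and 1 RNA column for each of the 4 groups. Each value is therefore what the authors give per group; the spread between libraries cannot be seen, and no difference has a replicate check. Brackets hold 95% counting intervals, which cover the sampling of reads only, and PCR copies, which no molecular identifier marks here, make them too narrow. Ratios are log2 of counts scaled by TMM, a method that sets the bulk of genes level between columns. A gene was called apart when it differed at least 2-fold, its interval excluded no difference and the pair of columns held at least 20 counts. That rule is a description and not a test.

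MicroRNAs guide Argonaute proteins to target mRNAs. Argonaute then recruits a GW182 protein (Tnrc6a, Tnrc6b or Tnrc6c), which docks the PAN2-PAN3 and CCR4-NOT deadenylases; loss of the poly(A) tail leads to decapping and decay, and Mov10 is a helicase found with this complex. Zfp36 proteins (tristetraprolin and its relatives) bind AU-rich elements, mostly in transcripts of immediate early genes, growth factors and cytokines, and bring in CCR4-NOT directly. Zfp36 is itself an immediate early gene. Mex3a, the deleted gene, encodes a KH-domain protein that binds RNA and carries a RING-type ubiquitin ligase domain.

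The columns held between 3031489 and 4456989 footprints and between 26946592 and 89327877 RNA reads over coding sequences. Mex3a footprints numbered 437, 28, 16 and 5 in the control and then the KO column of Ngn1-GFP cells, followed by the same pair of OMP-GFP cells; every set of 4 values here has this order. Its RNA counts were 9645, 656, 387 and 38. Counts cover the whole coding sequence and do not show which part the remaining reads come from. The sorted populations differed in their markers but were not pure. The summed level of 8 precursor markers was 882, 1242, 88.7 and 121 in scaled footprint CPM, and that of 10 mature neuron markers was 12693, 14674, 23256 and 27077. That of 8 immature neuron markers was 6938, 8826, 6699 and 7311 CPM, close to each other in the control columns. Taken singly, 4 of these 8 were called lower in OMP-GFP footprints in controls, with a median log2 ratio of -0.96. Omp itself, the defining gene of mature neurons, was at 2559, 2754, 2839 and 3983 CPM, higher in both OMP-GFP columns by less than 2-fold; its RNA was at 858, 938, 1122 and 1406 CPM. Sustentacular (support) cell markers, 12 genes, summed to 5894, 797, 195 and 647 CPM, and nasal gland markers, 9 genes, to 389, 810.3, 75.8 and 549 CPM. In the Ngn1-GFP control, 530 genes had RNA at least 8-fold above each other column, 4.87% of its RNA counts in all. The other columns had 16, 1 and 5 such genes. In footprints the numbers were 104, 19, 0 and 8. None of the 10 silencing genes was among them in any column, and scaling without those genes left every call among the 10 as it was.

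RNA of the 7 microRNA pathway genes stayed within 2-fold in each of the 4 comparisons, whereas footprints of Ago2, Pan3, Mov10 and Tnrc6b did not. The 3 Zfp36 genes had far fewer footprints in OMP-GFP cells. Levels are given per coding length, as RNA in TPM and footprints in RPKM, both relative to the column's total. Of the 10 genes, 5 had a higher footprint level in both Ngn1-GFP columns than in both OMP-GFP columns (Ago1, Ago2 and the 3 Zfp36 genes), against 38.1% of 13479 genes. Tnrc6b alone of the 10 had the opposite order, which 14.6% of genes had. The order counts any margin: Ago2 control columns were at 20.4 and 18.0 RPKM, and after TMM scaling their log2 ratio was 0.031 [-0.26, 0.32]. In RNA, the 3 Zfp36 genes were higher in both Ngn1-GFP columns (31.8% of 16388 genes) and 3 genes, Ago1, Tnrc6b and Pan2, were higher in both OMP-GFP columns (25.5%).

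**Figure D1:**
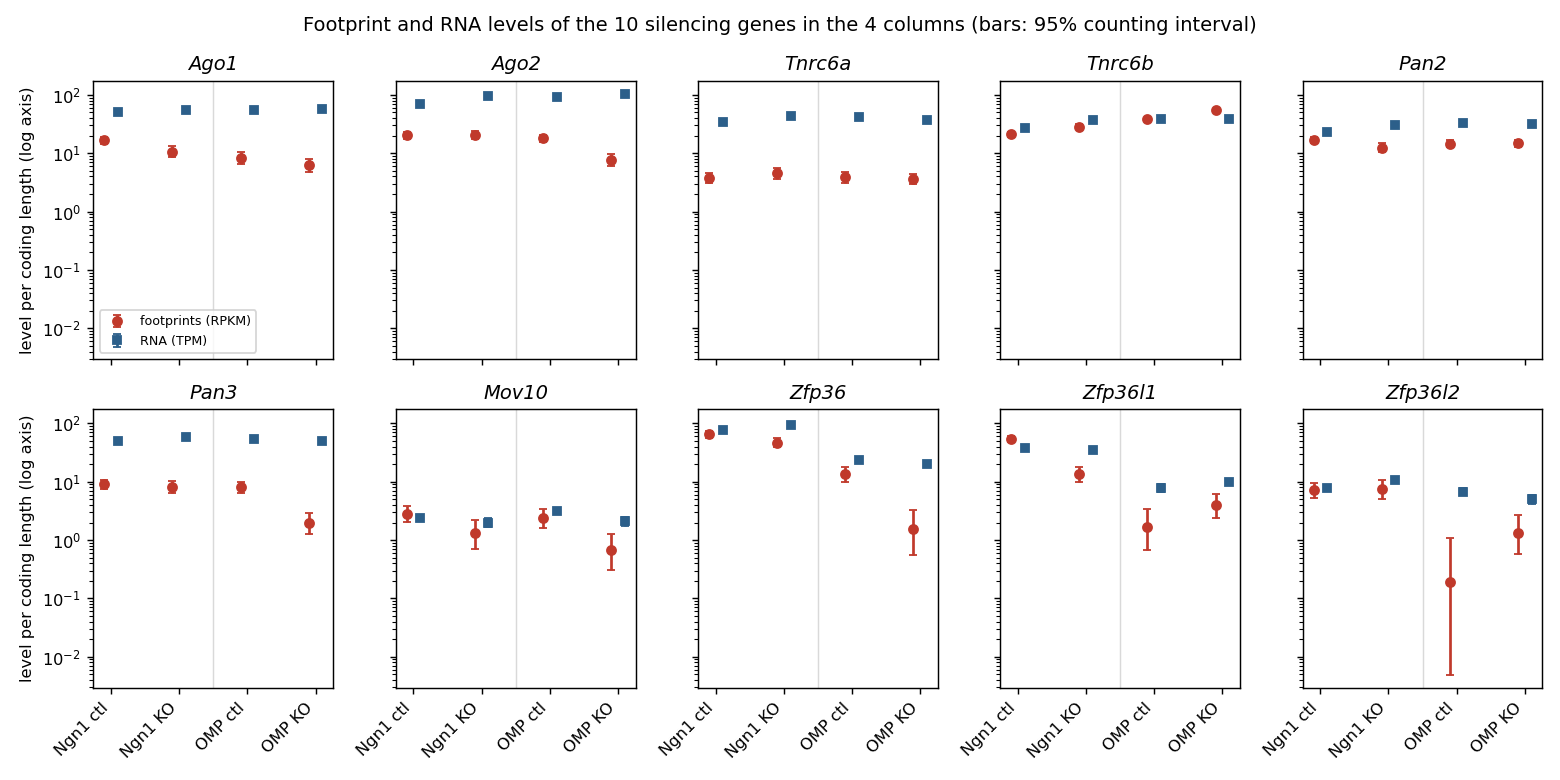
Footprint level (circles, RPKM) and RNA level (squares, TPM) per coding length on a log axis for the 10 genes in the 4 columns, with 95% counting intervals. RNA of Ago1 stayed between 51.5 and 56.4 TPM while its footprints ran from 16.7 down to 6.22 RPKM, and Zfp36 went from 64.5 to 1.52 RPKM.

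Ago2 (ENSMUSG00000036698, chromosome 15, 73101625 to 73184947) is the Argonaute that can cleave its target. It had 235, 160, 166 and 82 footprints, or 20.4, 20.4, 18.0 and 7.74 RPKM, against 69.2, 95.6, 91.1 and 102 TPM of RNA. Its footprint level was even in the first 3 columns, whose neighbours in the order had intervals across no difference, and lower in the OMP-GFP KO alone. KO over control was 0.068 [-0.23, 0.36] in Ngn1-GFP cells and -1.14 [-1.54, -0.75] in OMP-GFP cells, 2.20-fold lower in the latter. Ago2 RNA was slightly higher in both KO columns (0.23 [0.18, 0.28] and 0.21 [0.15, 0.26]), so footprints and RNA went in opposite directions in OMP-GFP cells.

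Ago1 (ENSMUSG00000041530, chromosome 4, 126435012 to 126468707), which also binds microRNAs, had 198, 86, 80 and 68 footprints and 9609, 2795, 3265 and 2861 RNA counts. Its level was 16.7, 10.6, 8.39 and 6.22 RPKM and 51.5, 54.5, 55.4 and 56.4 TPM. The Ngn1-GFP control stood above the Ngn1-GFP KO, and the 3 lower columns could not be ordered beyond counting error between neighbours. KO over control was -0.58 [-0.96, -0.21] in Ngn1-GFP and -0.35 [-0.84, 0.13] in OMP-GFP cells, neither reaching 2-fold. OMP-GFP over Ngn1-GFP was -0.78 [-1.17, -0.39] in controls and -0.55 [-1.03, -0.073] in KO mice, while the same RNA ratios were -0.026 and 0.20.

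Their paralogs Ago3 and Ago4, not among the 10, had few footprints and the opposite order. Ago3 had 39, 25, 55 and 89 and Ago4 33, 13, 43 and 70. OMP-GFP over Ngn1-GFP was 1.03 [0.41, 1.66] for Ago3 and 0.91 [0.23, 1.61] for Ago4 in controls, and 1.62 [0.97, 2.32] and 2.22 [1.35, 3.20] in KO mice. In OMP-GFP cells KO over control was 0.57 [0.073, 1.09] for Ago3 and 0.58 [0.015, 1.17] for Ago4, above 0 where Ago2 was below it; their RNA was lower in the OMP-GFP KO (-0.35 [-0.48, -0.23] and -0.23 [-0.36, -0.092]).

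Tnrc6b (ENSMUSG00000047888, chromosome 15, 80711313 to 80941086), a GW182 protein that links Argonaute to the deadenylases, had the most footprints of the 10 genes, 524, 488, 760 and 1272. Its level was 21.0, 28.7, 37.9 and 55.3 RPKM, and each step of that order, rising through the columns as listed, exceeded counting error. RNA was 26.7, 37.9, 38.8 and 38.9 TPM, lowest in the Ngn1-GFP control and level in the other columns. OMP-GFP over Ngn1-GFP was 1.07 [0.91, 1.23] in controls (2.10-fold) and 1.17 [1.02, 1.33] in KO mice (2.25-fold). Both fell short of 2-fold when columns were scaled by library size alone (0.85 and 0.95). KO over control was 0.52 [0.34, 0.70] in Ngn1-GFP and 0.62 [0.49, 0.75] in OMP-GFP cells, above 0 in both populations without reaching 2-fold.

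Tnrc6a (ENSMUSG00000052707, chromosome 7, 123031101 to 123195296), its close relative, showed no such gradient. It had 101, 82, 82 and 88 footprints at 3.84, 4.58, 3.88 and 3.63 RPKM, and no pair of neighbours in that order was apart beyond counting error. Its RNA, 34.5, 44.1, 41.0 and 37.8 TPM, was as abundant as that of Tnrc6b or more so in 3 of 4 columns, yet its footprint level was 21.0 against 3.84 RPKM in the Ngn1-GFP control and 55.3 against 3.63 RPKM in the OMP-GFP KO. The third relative, Tnrc6c, had ratios of OMP-GFP over Ngn1-GFP of 0.24 [0.019, 0.46] in controls and 0.36 [0.13, 0.59] in KO mice.

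Pan2 and Pan3 form a deadenylase in which Pan2 is the nuclease and Pan3 the adaptor that GW182 proteins contact. Pan3 (ENSMUSG00000029647, chromosome 5, 147426208 to 147548501) had 118, 72, 85 and 24 footprints at 8.996, 8.07, 8.08 and 1.99 RPKM and 49.6, 57.5, 55.1 and 50.2 TPM of RNA. The OMP-GFP KO stood below the other columns, among which neighbours were not apart. KO over control was -1.94 [-2.66, -1.28] in OMP-GFP cells, 3.85-fold lower, and -0.090 [-0.53, 0.34] in Ngn1-GFP cells, with RNA ratios of -0.089 and -0.019. Pan2 (ENSMUSG00000005682, chromosome 10, 128303333 to 128321358) had 271, 136, 188 and 221 footprints at 16.9, 12.5, 14.6 and 14.96 RPKM. No neighbours in its order were apart, and KO over control was 0.11 [-0.17, 0.40] in OMP-GFP and -0.37 [-0.68, -0.070] in Ngn1-GFP cells. The catalytic subunit thus kept its footprint level in the OMP-GFP KO column, where that of its adaptor was low.

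Mov10 (ENSMUSG00000002227, chromosome 3, 104794828 to 104818619) was the least abundant of the 10 in RNA, at 2.41, 1.99, 3.17 and 2.08 TPM. It had 41, 13, 28 and 9 footprints, and its KO over control ratios were -1.03 [-2.06, -0.11] in Ngn1-GFP and -1.76 [-3.03, -0.63] in OMP-GFP cells. Its RNA was also lower in both KO columns (-0.51 [-0.80, -0.23] and -0.56 [-0.89, -0.25]). Among neighbours in the order of its footprint levels, 2.80, 1.31, 2.39 and 0.669 RPKM, none was apart beyond counting error.

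The 3 Zfp36 genes were called lower in OMP-GFP footprints in both kinds of mouse, and Zfp36 and Zfp36l1 were also called lower in RNA. Zfp36 (ENSMUSG00000044786, chromosome 7, 28376784 to 28379228) had 276, 136, 47 and 6 footprints at 64.5, 46.7, 13.7 and 1.52 RPKM, and each step down that order exceeded counting error. RNA was 76.2, 93.8, 23.2 and 20.2 TPM, high in both Ngn1-GFP columns and low in both OMP-GFP columns. OMP-GFP over Ngn1-GFP was -2.02 [-2.50, -1.57] in control footprints and -1.84 [-1.98, -1.71] in control RNA, nearly the same. In KO mice it was -4.71 [-6.18, -3.55] in footprints and -2.07 [-2.23, -1.90] in RNA, so footprints were further apart than RNA there. The added distance lay in the OMP-GFP KO column, where 6 footprints remained of 47 in the control: KO over control was -3.09 [-4.61, -1.86] (8.51-fold lower) with RNA at -0.16 [-0.36, 0.040]. In Ngn1-GFP cells it was -0.40 [-0.71, -0.10] with RNA at 0.066 [-0.013, 0.15].

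Zfp36l1 (ENSMUSG00000021127, chromosome 12, 80107760 to 80113013), a relative that binds the same AU-rich elements, had 280, 48, 7 and 19 footprints at 53.1, 13.4, 1.65 and 3.92 RPKM and 38.5, 35.3, 7.83 and 9.90 TPM of RNA. Footprints were high in the Ngn1-GFP control alone, lower in the Ngn1-GFP KO and lowest in the OMP-GFP columns, which were not apart by library size alone. KO over control in Ngn1-GFP cells was -1.92 [-2.40, -1.48], 3.79-fold lower, with an RNA ratio of -0.36 [-0.47, -0.24]. In OMP-GFP cells it was 1.32 [0.0078, 2.81], resting on 7 and 19 footprints; its interval only just excluded 0, and the call was lost by library size alone (1.24) and by scaling without receptor, mitochondrial and ribosomal protein genes (1.31). OMP-GFP over Ngn1-GFP was -4.79 [-6.12, -3.73] in controls and -1.55 [-2.40, -0.75] in KO mice, with RNA at -2.43 [-2.64, -2.22] and -1.69 [-1.91, -1.47].

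Zfp36l2 (ENSMUSG00000045817, chromosome 17, 84183924 to 84187947), the third relative, had 46, 33, 1 and 8 footprints at 7.09, 7.48, 0.192 and 1.34 RPKM and 7.67, 10.8, 6.77 and 5.02 TPM of RNA. Nearly all of its footprints lay in the Ngn1-GFP columns. OMP-GFP over Ngn1-GFP was -4.99 [-10.33, -2.44] in controls, with 1 footprint in the OMP-GFP column, and -2.25 [-3.58, -1.11] in KO mice. Its RNA was less far apart, at -0.31 [-0.53, -0.093] and -0.96 [-1.26, -0.67]. The pair of OMP-GFP columns held too few footprints for a KO ratio, and in Ngn1-GFP cells that ratio was 0.14 [-0.55, 0.82].

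The sequences before the start sites of Zfp36 and Zfp36l1 are shown because these genes moved together between the populations in RNA and apart between KO and control in OMP-GFP footprints. Each is the 250 bases before the gene's first base in RefSeq (GRCm38.p6, minus strand), 5′ to 3′, with capitals for matches to 4 motifs searched on both strands. These were the CArG box of serum response factor, the TATA box TATAAA, the GC box GGGCGG of Sp1-type factors and the site GCGGGGGCG of Egr factors. The Zfp36 window is chr7:28379229-28379478 and that of Zfp36l1 is chr12:80113014-80113263.
Zfp36: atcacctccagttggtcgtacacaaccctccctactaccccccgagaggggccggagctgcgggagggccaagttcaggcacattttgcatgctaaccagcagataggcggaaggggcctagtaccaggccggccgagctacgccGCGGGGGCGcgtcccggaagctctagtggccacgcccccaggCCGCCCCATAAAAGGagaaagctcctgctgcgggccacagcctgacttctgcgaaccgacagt
Zfp36l1: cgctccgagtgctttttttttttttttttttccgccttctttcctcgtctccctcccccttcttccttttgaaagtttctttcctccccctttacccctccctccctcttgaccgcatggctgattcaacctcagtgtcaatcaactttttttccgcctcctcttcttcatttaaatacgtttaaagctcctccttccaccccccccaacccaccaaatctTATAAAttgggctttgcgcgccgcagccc
Zfp36 holds GCGGGGGCG from 105 to 97 bases before the start, GGGCGG on the opposite strand from 63 to 58, and a CArG box from 58 to 49, which shares 1 base with the GC box. Zfp36l1 holds TATAAA from 29 to 24 bases before the start and none of the others. Over 32851 promoter windows of the same 250 bases, 1.47% held a CArG box, 2.57% GCGGGGGCG, 32.7% GGGCGG and 12.4% TATAAA. A match describes the letters and shows no binding. The set of promoter sequences holds 8 of the 10 genes, without Ago2 and Zfp36l2.

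**Figure D2:**
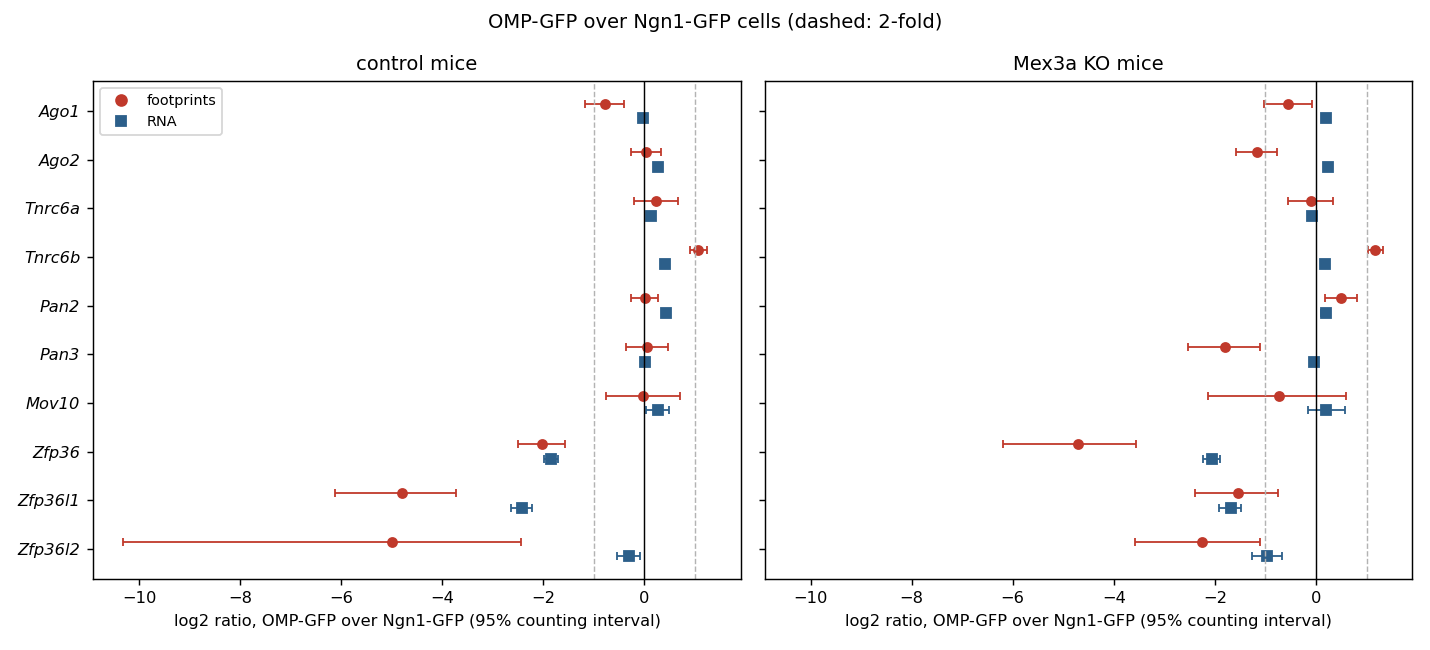
Log2 ratio of OMP-GFP over Ngn1-GFP for footprints (circles) and RNA (squares) in control mice (left) and KO mice (right), with 95% counting intervals and dashed lines at 2-fold. The 3 Zfp36 genes lie below the 2-fold line in footprints on both sides, and Tnrc6b lies just above it at 1.07 and 1.17.

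Counted over the set, the population comparison asked how mature neurons differ from precursors and immature neurons. In control mice 1 of 10 genes (Tnrc6b) was called higher in OMP-GFP footprints and 3 (the Zfp36 genes) lower, where 23.5% of 12387 genes were called in either direction. In KO mice 1 was higher and 5 lower, Ago2 and Pan3 joining the 3, against 29.6% of 11766 genes. In RNA 2 of 10 were called in each kind of mouse, Zfp36 and Zfp36l1, both lower, against 26.8% and 21.2% of all genes. The RNA counts lie near the background, and the footprint counts lie above the share over all depths on only 10 genes. Calls went with depth here too. In KO mice 59.3% of genes with a mean of 10 to 30 footprints were called, and 37.1% at 30 to 100. Zfp36l2 (mean 20.5) lies in the first range, and Zfp36l1 (33.5), Pan3 (48) and Zfp36 (71) in the second. Ago2 (121) and Tnrc6b (880) lie where 15.3% and 8.85% were called. In controls Zfp36l2 (23.5) lies where 50.4% were called, Zfp36 (161.5) and Zfp36l1 (143.5) where 12.3% were, and Tnrc6b (642) where 7.13% were. The median footprint ratio of the 10 was -0.0068 in controls and -0.96 in KO mice, beside -0.020 and -0.0076 over all genes. Fewer cells that carry a transcript and less of it per cell cannot be told apart in sorted bulk samples. Markers of 6 other lists moved the same way as the Zfp36 genes in controls. Called lower there were 12 of 12 measured support cell markers (median -4.98), 8 of 8 gland (-2.59), 5 of 5 microvillar and tuft (-2.28), 4 of 4 basal cell (-3.62), 7 of 8 vessel and mesenchyme (-3.01) and 7 of 7 precursor markers (-3.42). In KO mice the counts were 4 of 11, 3 of 8 (with 2 higher), 4 of 5, 2 of 2, 5 of 7 (with 1 higher) and 7 of 7. Of 8 immature neuron markers, 4 were called lower in controls (median -0.96) and 3 in KO mice (-0.89), with 0 higher. Immune markers were mixed: 2 of 4 measured were called lower in controls (median -0.64). In KO mice 2 of 5 immune markers were called higher and 0 lower (1.07). The summed footprints of 5 basal cell markers were 107, 113, 2.35 and 0.811 CPM and those of 8 vessel and mesenchyme markers 1277, 1562, 147 and 124 CPM. In the OMP-GFP control the basal markers Trp63, Krt14 and Krt15 were at 0 footprints, and in the OMP-GFP KO so were these 3, the basal marker Icam1 and the vessel and mesenchyme markers Kdr and Lum. Their part in the Zfp36 result was not tested.

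Between KO and control in Ngn1-GFP cells, footprints of the microRNA pathway genes stayed within 2-fold apart from Mov10. Of the 10 genes, 2 were called lower (Mov10 and Zfp36l1) and 0 higher, against 17.3% of 12554 genes called in either direction. RNA of 0 of 10 was called, against 15.7% of genes; the RNA ratios of the 10 ran from -0.51 (Mov10) to 0.27 (Tnrc6b). Zfp36l1 had a mean of 164 footprints in this pair, and among 3566 genes with a mean of 100 to 300 footprints, 5.52% were called, with an SD of 0.581. Mov10, with a mean of 27, lies in the range of 10 to 30 where 44.9% were called. Support cell markers moved with Zfp36l1 here: 11 of 12 were called lower, with a median of -2.69, none at 0 in any column, and their summed RNA was 1207, 211, 92.4 and 355 CPM. In RNA 10 of these 12 markers were called lower (median -2.36), where Zfp36l1 was at -0.36. Other lists varied: 3 of 8 measured gland markers were called higher and 0 lower, and 1 of 7 precursor markers higher and 0 lower. Vessel and mesenchyme markers had 1 of 8 higher and 1 lower. Microvillar and tuft markers had 1 of 5 higher and 1 lower, and basal cell markers 2 of 5 lower. Immune markers had 1 of 4 measured higher and 2 lower, with a median of -2.11. Their footprints summed over 8 genes were few, 135 and 52 in this pair. The part of support cells or of other cells in the Zfp36l1 ratio was not tested.

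**Figure D3:**
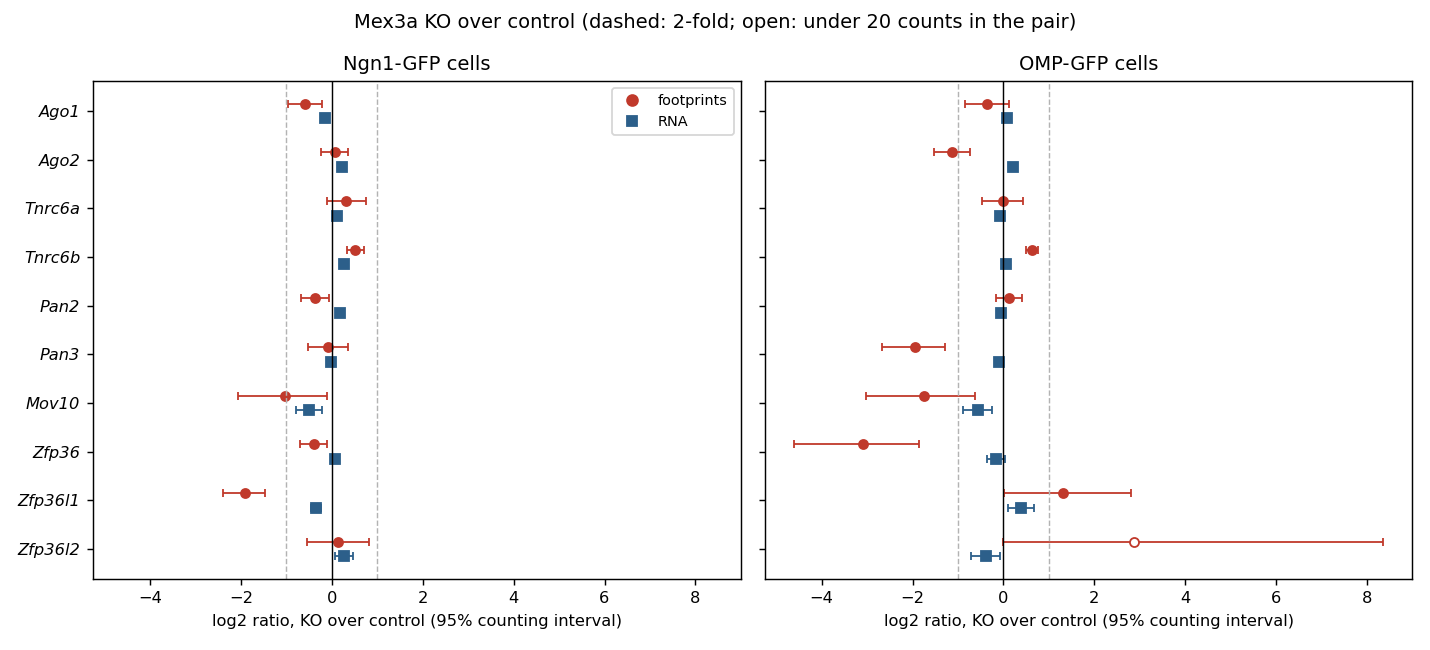
Log2 ratio of KO over control for footprints (circles) and RNA (squares) in Ngn1-GFP (left) and OMP-GFP cells (right), with 95% counting intervals and dashed lines at 2-fold; the open circle is Zfp36l2, with under 20 footprints in the pair. RNA stays inside the 2-fold lines for all 10 genes on both sides, while footprints of Ago2, Pan3, Mov10 and Zfp36 lie below them in OMP-GFP cells.

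In OMP-GFP cells, footprints of 4 silencing genes were at least 2-fold lower in the KO column while their RNA stayed within 2-fold. Of 9 genes measured, Zfp36l2 being left out, 4 were called lower (Zfp36, Pan3, Mov10 and Ago2) and 1 higher (Zfp36l1), where 15.7% of 11160 genes were called in either direction. RNA of 0 of 10 was called, against 8.29% of genes, and the RNA ratios ran from -0.56 (Mov10) to 0.38 (Zfp36l1). How often a gene was called went with its depth. Ago2 had a mean of 124 footprints in this pair, a range of 100 to 300 in which 6.08% of genes were called. For Pan3, with a mean of 54.5, the range of 30 to 100 had 20.6%. For Zfp36, Mov10 and Zfp36l1, with means of 26.5, 18.5 and 13, the range of 10 to 30 had 39.9%. At a minimum of 100 footprints in the pair, 6 of the 10 were left and 2 were called, Ago2 and Pan3. The share of all genes called at that minimum was not computed, so this count has no background beside it. Gland and support cell markers were higher in this KO column: 6 of 7 measured gland markers and 6 of 9 support cell markers were called higher, though Obp1b and Sox10 were at 0 footprints in it. Their part in these ratios was not tested.

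Zfp36l1 and Zfp36 had KO effects that differed between the populations in opposite ways. The KO effect in OMP-GFP minus that in Ngn1-GFP cells was 3.24 [1.92, 4.57] for Zfp36l1 (with 7 and 19 footprints in OMP-GFP cells), -2.69 [-3.95, -1.43] for Zfp36, -1.85 [-2.63, -1.08] for Pan3 and -1.21 [-1.68, -0.73] for Ago2. These 4 of 9 genes were called, against 22.3% of 10845 genes. For Tnrc6b the difference was 0.10 [-0.12, 0.32], for Tnrc6a -0.34 [-0.94, 0.26] and for Ago1 0.23 [-0.37, 0.82], so these 3 effects were not apart beyond counting error, nor was that of Mov10 (-0.72 [-2.13, 0.69]). Pan2 was apart beyond counting error at 0.49 [0.077, 0.89], under 2-fold. Markers of other cells moved with Zfp36l1 here: 9 of 9 measured support cell markers were called higher in this difference, with a median of 4.39. Of 7 gland markers 5 were higher and 1 lower, with a median of 2.93. Immune markers were higher for 3 of 3 measured, with a median of 3.43. Vessel and mesenchyme markers had 2 of 6 higher and 1 lower, and microvillar and tuft markers 1 of 2 higher and 0 lower. Their part in the Zfp36l1 difference was not tested. The comparisons share columns: each KO column and each control column enters both a KO ratio and a population ratio.

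Footprints per RNA, the scaled footprint count divided by the scaled RNA count, set the members apart within each column. The median over all genes with at least 100 RNA counts was 1.02, 0.921, 0.893 and 0.860. Tnrc6a was at 0.130, 0.149, 0.140 and 0.146, which placed it at percentiles 3.08, 4.28, 4.07 and 6.56 among those genes. Pan3 was at 0.211, 0.201, 0.217 and 0.0600 (percentiles 6.20, 6.63, 8.10 and 2.68). Both thus had few footprints for their RNA in each of the 4 columns. Ago1, at 0.377, 0.280, 0.224 and 0.167, and Ago2, at 0.343, 0.306, 0.292 and 0.115, lay at percentiles 14.6, 10.8, 8.58 and 7.61 and 12.8, 12.4, 12.9 and 5.02. Tnrc6b lay higher, at 0.915, 1.09, 1.44 and 2.15 and percentiles 44.3, 58.5, 72.2 and 87.0. Pan2 lay near the middle, at percentiles 41.9, 30.4, 35.6 and 41.9.

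Among the Zfp36 genes, footprints per RNA lay at percentiles 48.2, 71.7 and 52.5 in the Ngn1-GFP control. Zfp36 was at 0.986, 0.715, 0.871 and 0.114, Zfp36l1 at 1.61, 0.543, 0.313 and 0.600 and Zfp36l2 at 1.08, 0.992, 0.0420 and 0.405. Zfp36 was at percentile 48.8 in the OMP-GFP control and at 4.96 in the OMP-GFP KO. As a ratio of KO over control, footprints per RNA were called apart for 1 of 10 genes in Ngn1-GFP cells (Zfp36l1, -1.57 [-2.02, -1.11]), against 18.2% of genes. In OMP-GFP cells they were called for 4 of 9, all lower: Zfp36 (-2.93 [-4.17, -1.69]), Pan3 (-1.86 [-2.51, -1.20]), Ago2 (-1.35 [-1.73, -0.96]) and Mov10 (-1.19 [-2.32, -0.067]), against 16.2%. Between populations, 2 of 10 were called in controls (Zfp36l1 and Zfp36l2, both lower), against 14.5%, and 4 in KO mice (Ago2, Pan3, Zfp36 and Zfp36l2, all lower), against 22.9%.

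**Figure D4:**
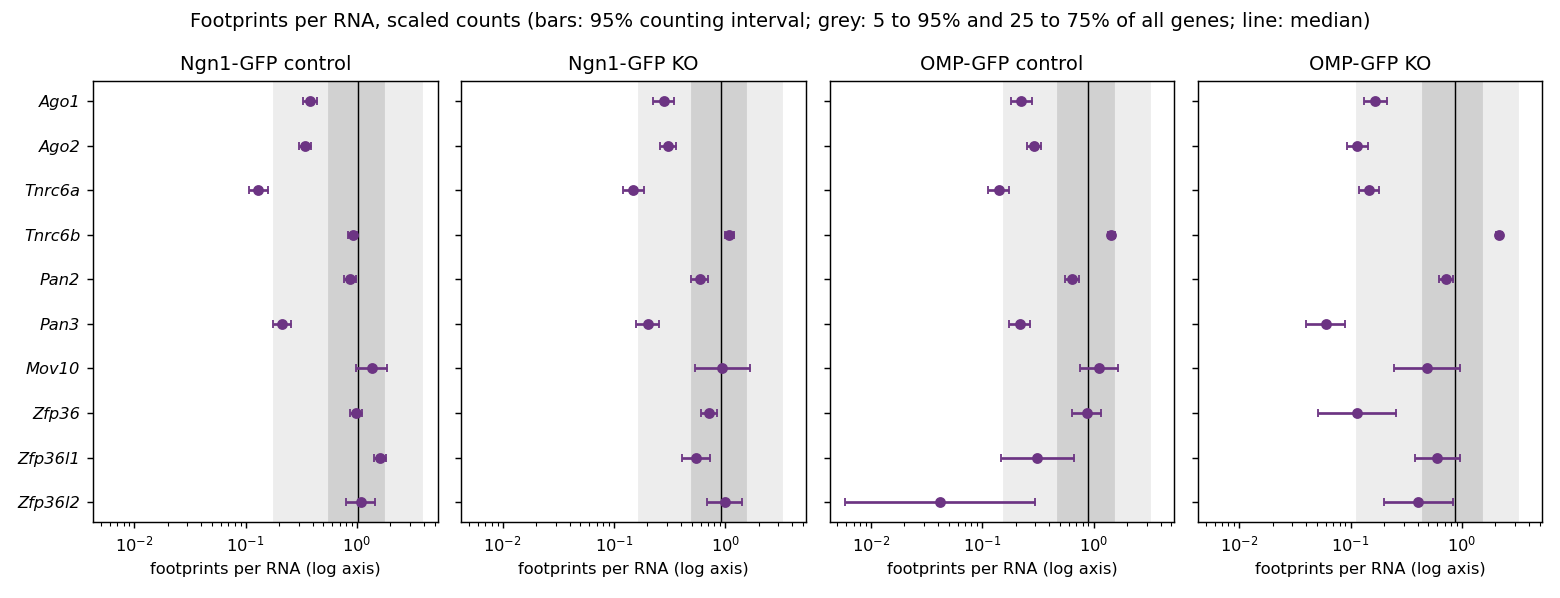
Footprints per RNA (scaled counts, log axis) of the 10 genes in each of the 4 columns, with 95% counting intervals; grey bands span 5 to 95% and 25 to 75% of all genes with at least 100 RNA counts, and the line is their median. Tnrc6a and Pan3 lie far left in each column, and Tnrc6b moves right, from 0.915 in the first column to 2.15 in the last.

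The genes whose pattern over the 8 columns was nearest to that of Zfp36l1 were, in order, Anxa2, Cdh1, Clu, Cers2 and Parva. Likeness was the Euclidean distance of log2 scaled counts centred within each assay, over 8596 genes with at least 50 counts in at least 2 columns of each assay, and the distances were 0.369, 0.904, 0.989, 1.10 and 1.14. Anxa2 encodes the membrane-binding protein annexin A2, and its footprints were 360, 75, 9 and 22. Cdh1 encodes E-cadherin, the adhesion protein of epithelial cells, with 1004, 156, 31 and 65 footprints. Clu encodes the secreted chaperone clusterin, with 2047, 482, 88 and 213. Cers2 makes ceramides and Parva is an actin-binding protein of focal adhesions. All 5 had most footprints in the Ngn1-GFP control and fewest in the OMP-GFP control, as Zfp36l1 had. They were picked for likeness over these same columns, so the shared order follows from the choice.

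**Figure D5:**
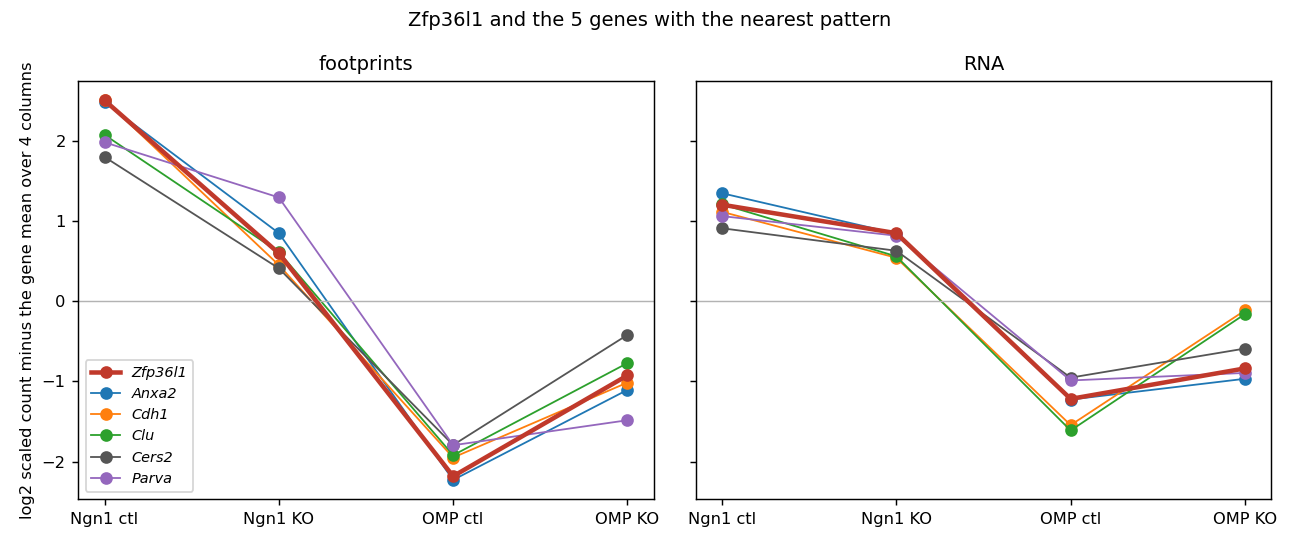
Log2 scaled counts of Zfp36l1 (thick red) and its 5 nearest genes, each minus its mean over the 4 columns, for footprints (left) and RNA (right). Anxa2, at a distance of 0.369, is closest; in RNA, Cdh1 and Clu lie above Zfp36l1 in the OMP-GFP KO (-0.11 and -0.16 against -0.84), and in footprints Parva lies above it in the Ngn1-GFP KO (1.30 against 0.60).

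Transcripts known to carry AU-rich elements or to be bound by Zfp36 proteins, a list of 18 that includes Fos, Egr1, Myc and Ier3, held several that were low in OMP-GFP footprints. Between populations, calls were 6 lower and 0 higher of 16 measured in controls and 9 lower and 0 higher of 14 measured in KO mice, where 17.4% and 18.4% of all genes were called lower. The medians of the list were -0.56 and -1.57. In controls, the cell cycle gene Ccnd1 (-2.67 [-3.31, -2.08]), the receptor gene Notch1 (-2.48 [-3.40, -1.67]) and the early response gene Ier3 (-2.04 [-2.85, -1.31]) were lower by the widest margin beyond counting error. RNA was lower there too for Notch1 (-3.31 [-3.56, -3.07]) and Ier3 (-2.42 [-2.99, -1.91]). RNA calls were 6 lower and 1 higher of 18 in controls and 7 lower and 1 higher of 17 in KO mice. Footprints per RNA were called lower for 0 and higher for 1 of 16 in controls, against 14.5% of all genes in either direction. In KO mice 4 of 14 were lower and 0 higher, against 22.9%. Between KO and control in OMP-GFP cells 5 lower and 0 higher of 12 measured were called, with a median of -0.70 beside 0.0039 over all genes, of which 8.54% were called lower. The immediate early factors Egr1 (-1.88 [-2.16, -1.60]; RNA -0.40 [-0.43, -0.37]) and Fos (-1.48 [-1.68, -1.27]; RNA -0.72 [-0.76, -0.68]) and the zinc finger factor Klf6 (-1.40 [-1.95, -0.87]) were among them. Jun, also of this list, was above 0 there (0.70 [0.60, 0.80]). In Ngn1-GFP cells 2 lower and 1 higher of 17 measured were called, a share like the 17.3% of all genes: the early response receptor gene Nr4a1 (-1.46 [-1.94, -0.998]) and Myc (-2.88 [-5.23, -1.21], from 34 to 3 footprints) lower, and the Notch ligand gene Dll4 (2.21 [1.14, 3.40]) higher. The list was drawn up with earlier results of these data known, and it overlaps the immediate early genes to which Zfp36 itself belongs.

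Most other genes of the pathway were not called apart between KO and control. In Ngn1-GFP footprints the calls were 1 of 15 CCR4-NOT subunits and partners, 0 of 12 decapping and decay genes, 0 of 9 microRNA biogenesis genes and 0 of 10 other AU-rich element binders, where 17.3% of all genes were called. Medians of these lists were -0.12, 0.094, 0.15 and -0.032. In OMP-GFP footprints the calls were 1 of 15, 0 of 12, 0 of 8 and 0 of 10, against 15.7% of all genes, with medians of -0.24, 0.26, -0.053 and 0.018. The gene called in Ngn1-GFP cells was Cnot9 (-1.23 [-1.75, -0.74]; RNA -0.00061 [-0.11, 0.10]), a subunit that docks GW182 proteins. In OMP-GFP cells it was Btg1 (-2.58 [-3.72, -1.59]; RNA 0.047 [-0.080, 0.17]), an antiproliferative partner of the deadenylase, which went from 55 to 10 footprints. Footprints per RNA in Ngn1-GFP cells were called lower for 2 of 15 CCR4-NOT genes, Cnot4 (-1.05 [-1.34, -0.75]) and Cnot9 (-1.23 [-1.72, -0.74]). So was 1 of 12 decapping and decay genes, Dcp1b (-1.23 [-1.65, -0.81]), against 18.2% of all genes in either direction. In OMP-GFP cells Btg1 alone was called (-2.63 [-3.61, -1.65]), against 16.2%. Between populations in KO mice footprints of 3 of 15, 1 of 12, 1 of 8 and 1 of 10 were called in the same order of lists, against 29.6% of all genes. Btg1 (-2.53 [-3.68, -1.54]), Btg2 (-1.15 [-1.46, -0.85]) and Tob2 (-1.08 [-1.51, -0.66]) were lower in OMP-GFP cells, as were the decapping enzyme gene Dcp2 (-1.61 [-2.29, -0.97]) and the Dicer partner gene Prkra (-1.12 [-1.70, -0.55]). Rc3h1, which encodes the decay factor roquin-1, was higher (1.04 [0.62, 1.48]). In controls 0 of 15, 0 of 12, 0 of 9 and 0 of 10 were called in the same lists, against 23.5% of all genes.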

How the data were processed

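FastQC, cutadapt and STAR, with genome build mm10, are named in the submitters' processing notes, without versions. Libraries were made, per the labels' protocols, with a low-input stranded SMARTer Pico kit. The authors deposited 1 table with footprint counts and RNA counts over coding sequences, coding length, translational efficiency, footprint RPKM and RNA TPM for each of 4 groups, per the file headers. RPKM and TPM recomputed from the deposited counts and lengths matched the authors' values, and the deposited efficiency was not used. No source used here says how libraries were combined.

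The members and lists were chosen with earlier results of these data known. Counts were scaled by TMM (edgeR 4.0.16, R 4.3.3) over genes kept by filterByExpr (minimum count 10, minimum total 15), 13479 for footprints and 16388 for RNA. Ratios and exact conditional binomial intervals were computed in Python 3.11.15 (numpy 2.4.6, pandas 2.3.3, scipy 1.17.1; plots with matplotlib 3.10.9); intervals of footprints per RNA and of differences of effects are approximate. A count of 0 was set to 3; no member had one. The ratio code was tested on simulated data. With 1 column per group the planned count test could not be run, and no p-value is given. The 10 members were named, with up to 3 called genes per list and comparison; Tnrc6c and Jun were named after their values were seen. As alternatives, columns were scaled by the size factors of DESeq2 1.42.0, by their totals alone, or by TMM leaving out olfactory receptor, mitochondrial and ribosomal protein genes; genes with 1 count or more were all kept; and at least 100 counts were asked of a pair. TMM without genes at least 8-fold above each other column was added after the data were seen. Promoters came from RefSeq (GRCm38.p6). The Cre driver's name is not reported here.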

Additional observations from a re-analysis of the deposited data

Results flagged for a closer look

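Zfp36l1 footprints were lower in the KO column of Ngn1-GFP cells (-1.92 [-2.40, -1.48]) and higher in that of OMP-GFP cells (1.32 [0.0078, 2.81]), a difference of 3.24 between the KO effects. It was singled out because the KO effects had opposite signs with counting intervals that excluded 0. With 1 column per group the difference was not tested, and the OMP-GFP ratio rests on 7 and 19 footprints. Support cell markers had the same reversal in footprints: 11 of 12 were called lower in Ngn1-GFP cells, 6 of 9 measured were called higher in OMP-GFP cells, and 9 of 9 had a called difference, with a median of 4.39. Few immune markers were measured. In Ngn1-GFP cells 2 of 4 were called lower and 1 higher, and in OMP-GFP cells 1 of 4 was called higher and 0 lower. The difference was called higher for 3 of 3 immune markers, with a median of 3.43. RNA was less alike. Support cell markers had RNA medians of -2.36 (10 of 12 called lower) and 1.64 (10 of 12 called higher), and Zfp36l1 RNA was at -0.36 and 0.38 without a call. Footprints per RNA in Ngn1-GFP cells were called lower for Zfp36l1 (-1.57) and for 2 of 12 support cell markers (median -0.54). The part of support cells or of other cells in the Zfp36l1 values was not tested.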

How the results depend on the processing

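No paired analysis was possible because the table has 1 column per group, and leaving out a replicate was not possible for the same reason. DESeq2 size factors, TMM leaving out receptor, mitochondrial and ribosomal protein genes, keeping genes with 1 count or more, and TMM without genes that stand apart left each of 127 member ratios inside its counting interval, and none of the called ratios changed sign under these or under library size alone. Library size alone moved 12 ratios outside their interval, all of microRNA pathway genes; it shifted the median of all genes by -0.21 and -0.23 for OMP-GFP over Ngn1-GFP footprints in control and KO mice. It ended the calls of Tnrc6b in both and that of Zfp36l1 between KO and control in OMP-GFP cells, which TMM leaving out receptor, mitochondrial and ribosomal protein genes ended too, and made Zfp36l2 RNA called lower in KO mice (-1.08). A minimum of 100 counts in the pair, which tests fewer members, gave 1 called gene for KO over control footprints in Ngn1-GFP cells and 2 in OMP-GFP cells, 2 for footprints per RNA in OMP-GFP cells, 1 and 2 for footprints per RNA between populations in control and KO mice, 3 each for footprints between populations in control and KO mice and 2 for the difference of effects. The share of all genes called at that minimum was not computed, so these counts have no background beside them. The count of genes ordered by population was the same when levels were taken as shares without receptor, mitochondrial and ribosomal genes. Members with few footprints (Mov10, Zfp36l2, and Zfp36l1 in OMP-GFP cells) are limited by depth.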
